A study of Rattus norvegicus with 4 samples.

Results

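A set of 10 genes of the brain's chondroitin sulfate matrix was examined in cultured rat OPCs. OPCs, or oligodendrocyte precursor cells, proliferate and later mature into the glia that wrap axons in myelin. The genes were the lecticans Vcan, Ncan, Bcan and Acan, the transmembrane proteoglycans Cspg4 and Cspg5, the tenascins Tnc and Tnr, the receptor phosphatase Ptprz1 and the link protein Hapln1. They were chosen by symbol as the members of this family, and all probes whose RefSeq accession maps to one of these symbols were used. The 10 genes were among 16581 symbols on the array and had 15 probes, of which 13 passed the filter on dim signals. That left 9 of the 10 genes among the 11676 symbols tested.

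OPCs from rat cortex at postnatal day 2 were kept with bFGF and PDGF for 3 days and then transfected, using Lipofectamine RNAiMax. One group received 50 nM of miR-125a-3p mimic, a synthetic RNA that raises the activity of this microRNA. The other group, miR-neg, received a negative control RNA. Both groups thus received a transfected RNA, and untransfected cells were not analysed here. The share of cells that took up the RNA was not tested here. RNA was taken after 48 h from 2 samples per group, and 100 ng was labelled with Cy3 for single-colour Agilent arrays. The 2 samples of each group are described as independent, but no source says that they came from separate animals or cultures. The p-values therefore rest on sample-to-sample spread alone, which may be technical. The labels call the cells oligodendrocytes.

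Lecticans are secreted proteoglycans that carry chondroitin sulfate chains, bind hyaluronan at one end and tenascins at the other, and are held on hyaluronan by link proteins. Together they form the loose matrix between brain cells and the dense perineuronal nets around some neurons. OPCs carry Cspg4, better known as NG2, on their surface, and cells of this lineage make several of the other members.

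The sequence below is the microRNA that the mimic stands for, since the comparison rests on it. It is credited to RefSeq on the assembly GRCr8 (chr1:67350727-67350748, plus strand), and the capitals mark its seed, bases 2 to 8. Among 724 mature rat microRNAs in that table it was the 1 with this seed. The sequence of the mimic itself is not given in the sources used here.
rno-miR-125a-3p: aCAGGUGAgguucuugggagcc

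The 4 arrays lay on 1 slide. Both miR-125a-3p arrays lay in one column of it and both miR-neg arrays in the other, and slide position cannot be told apart from group. Between 26332 and 28138 probes per array were well above background, the 75th percentile of the signal lay between 678.9 and 745.4, and no spot was saturated. Levels below are log2 signals relative to that percentile, and differences are miR-125a-3p minus miR-neg. Differences were tested with limma over 23155 features (genes, or probes without a current symbol), with Benjamini-Hochberg adjustment and a threshold of 0.05. With 2 arrays a group, their number limits the precision.

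None of the 9 genes passed the test. In limma 0 of 9 were past the threshold in either direction (smallest adjusted p 0.175), against 0.687% of all features, made up of 0.38% that rose and 0.307% that fell. At an unadjusted p under 0.05 there were 2 of the 9, Vcan and Bcan, against 19.5% of all features. The differences ran from -0.29 to 0.22 with a median of 0.08, 6 above and 3 below 0. Over all features the median was 0.01, and 47.5% lay below 0. In 4 of the 9 genes the groups did not overlap, against 52.9% of all features. Ncan and Ptprz1 were higher on both miR-125a-3p arrays (28.7% of all features) and Vcan and Bcan lower (24.1% of all features). These shares lie near the background, so they are no result about the family.

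**Figure D1:**
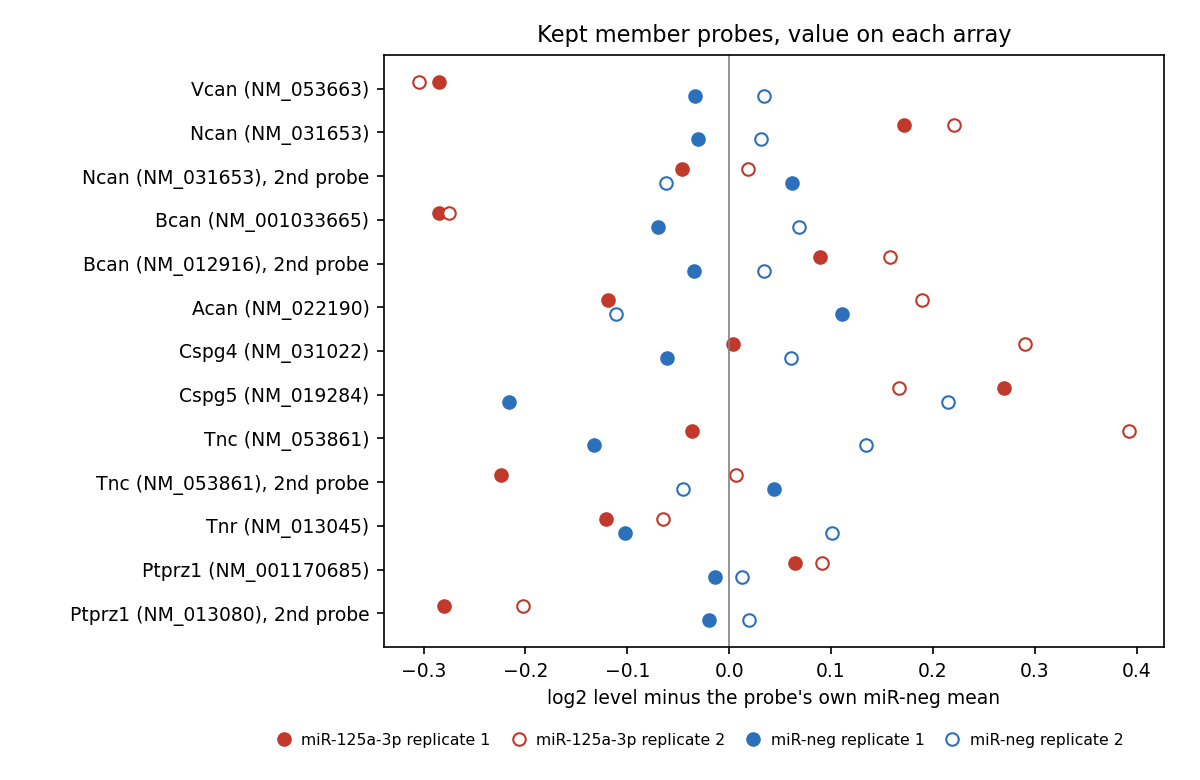
Log2 level of each of the 13 kept probes on each array, minus the probe's own miR-neg mean (horizontal axis), with filled points for replicate 1 and open points for replicate 2. The miR-125a-3p points of Vcan and of the brighter Bcan probe lie left of both miR-neg points, and in 7 of the 13 probes the groups overlap.

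Vcan encodes versican, the widely expressed lectican that is abundant in developing brain and around OPCs. Its probe (NM_053663, 2 spots) had log2 levels of 4.85 and 4.83 after miR-125a-3p, against 5.10 and 5.16 in miR-neg. Both miR-125a-3p arrays were below both miR-neg arrays. The means were 4.84 ± 0.01 and 5.13 ± 0.05 (SD, n = 2 each), a difference of -0.29 (SE 0.08, 95% interval -0.51 to -0.08) or 0.816-fold. The adjusted p was 0.175, so the difference was not past the threshold. It was larger than the spread between the arrays of each group. It passed with an intensity trend in limma (adjusted p 0.0245) and with another background correction, normexp (0.0479), but under none of the other 14 alternatives. Those 2 settings passed 2048 and 1601 of the 23155 features, against 159 as reported.

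Bcan encodes brevican, the brain-specific lectican of perineuronal nets and the perisynaptic matrix. Its brighter probe (NM_001033665), printed in 10 spots, had levels of 7.95 and 7.96 after miR-125a-3p, against 8.16 and 8.30 in miR-neg. Both miR-125a-3p arrays were again the lower ones. The difference was -0.28 (SE 0.09, 95% interval -0.52 to -0.04), or 0.824-fold, with an adjusted p of 0.216. It passed with the intensity trend alone (adjusted p 0.0468). The spots of one array agreed closely, with a coefficient of variation of 1.5% and 1.43% after miR-125a-3p, against 2.49% and 1.71% in miR-neg. Relative to the 75th percentile signal, the 10 spots ran from 238.9 to 252.2 and from 242.2 to 255 on the miR-125a-3p arrays, against 276.7 to 297 and 307.5 to 323.8 on the miR-neg arrays. On this scale the 2 miR-neg arrays thus differed by more than the spots of either. Before division their spots covered much the same range, 206247 to 221389 and 208792 to 219821. The highest scanner signal was 237448, below the saturation value of 779743.

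**Figure D2:**
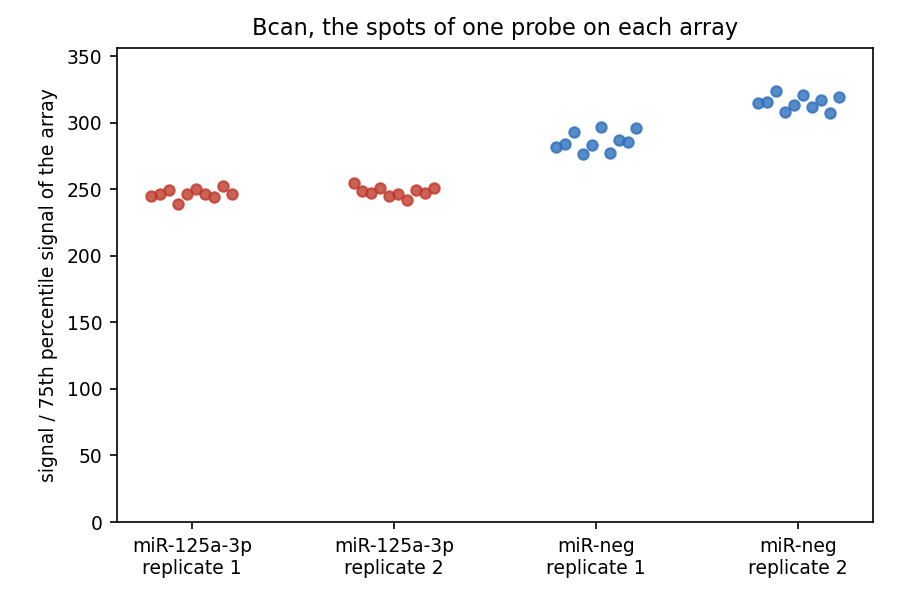
Signal of the 10 spots of the brighter Bcan probe on each array, divided by the 75th percentile signal of that array. All spots of the miR-125a-3p arrays lie at 255 or below, and all spots of the miR-neg arrays at 276.7 or above.

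The other Bcan probe (NM_012916) went the other way, with levels of 0.82 and 0.89 after miR-125a-3p, against 0.69 and 0.76 in miR-neg. That is a difference of 0.12 (SE 0.08, 95% interval -0.10 to 0.35). In the fit of every kept probe its adjusted p was 0.488. The probes of this gene thus differed in sign, and which transcripts each detects was not tested.

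The starts of Vcan and Bcan are printed because these were the members with the largest differences below 0. RefSeq's table (GRCr8) held promoters, 250 bases before to 50 after a start, for 8 of the 10 genes (all but Cspg5 and Ptprz1) and 9 starts, 2 of them of Vcan, of which 1 is shown. Of these, 7 of 9 held GGGCGG, the GC box, on either strand, against 33.1% of 33469 promoters. The 2 starts of Vcan overlap and hold the same site, which is thus counted 2 times. The share of G and C lay above the median of all promoters (51.7%) at every start but that of Tnr (38.3%), and reached 73% for Acan. TATAAA was in 2 of 9 (14.2% of all promoters), ACAAAG or ACAATG, words of the SOX factors, in 2 of 9 (29.1%), and CAGCTG in 0 of 9 (15.1%). Capitals mark the GC box, which reads as its reverse complement on the printed strand. A match is a description only.
Vcan promoter, chr2:22595906-22596205, minus strand: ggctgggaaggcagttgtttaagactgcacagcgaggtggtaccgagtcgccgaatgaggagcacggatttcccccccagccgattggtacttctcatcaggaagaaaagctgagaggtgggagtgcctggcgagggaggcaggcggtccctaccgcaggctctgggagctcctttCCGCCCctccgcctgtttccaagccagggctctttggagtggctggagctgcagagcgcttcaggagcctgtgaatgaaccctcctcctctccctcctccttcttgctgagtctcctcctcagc
Bcan promoter, chr2:175765265-175765564, minus strand: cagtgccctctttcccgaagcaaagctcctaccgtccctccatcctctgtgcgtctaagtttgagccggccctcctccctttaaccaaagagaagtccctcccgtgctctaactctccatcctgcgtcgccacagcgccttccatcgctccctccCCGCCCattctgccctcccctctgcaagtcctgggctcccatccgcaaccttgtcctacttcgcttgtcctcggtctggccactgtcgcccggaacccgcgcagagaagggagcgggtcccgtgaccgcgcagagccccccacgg

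Ncan encodes neurocan, a lectican made mainly in the nervous system. Its brighter probe (NM_031653) had levels of -0.34 and -0.29 after miR-125a-3p, against -0.54 and -0.48 in miR-neg. Both miR-125a-3p arrays were higher, by 0.20 (SE 0.08, 95% interval -0.02 to 0.41), with an adjusted p of 0.289. The other Ncan probe overlapped between the groups, with a difference of -0.01 (SE 0.09, 95% interval -0.26 to 0.23).

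Acan encodes aggrecan, the large lectican of cartilage that also builds perineuronal nets. Its probe (NM_022190) had signals of 389.4 and 492.7 after miR-125a-3p, against 485 and 378.8 in miR-neg. The groups overlapped, and the difference was 0.04 (SE 0.15, 95% interval -0.38 to 0.45) and an adjusted p of 0.923.

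Cspg4, the NG2 proteoglycan that defines OPCs, had levels of 4.75 and 5.04 after miR-125a-3p, against 4.69 and 4.81 in miR-neg. The first miR-125a-3p array lay between the miR-neg arrays. The difference was 0.15 (SE 0.13, 95% interval -0.21 to 0.51), with an adjusted p of 0.592. Cspg5 encodes neuroglycan C, a membrane proteoglycan of the nervous system. It had levels of 0.47 and 0.37 after miR-125a-3p, against -0.01 and 0.42 in miR-neg, with 1 miR-neg array apart from the other 3 arrays. Its difference of 0.22 (SE 0.17, 95% interval -0.25 to 0.69) had an adjusted p of 0.543.

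The tenascins are large multi-arm glycoproteins. Tnc, made by immature glia, had levels of -0.35 and 0.08 after miR-125a-3p, against -0.45 and -0.18 in miR-neg at its brighter probe (NM_053861). The groups overlapped, with a difference of 0.18 (SE 0.19, 95% interval -0.35 to 0.70), and the other probe stood at -0.11 (SE 0.12, 95% interval -0.42 to 0.20). Tnr, which oligodendrocytes make and which cross-links lecticans in perineuronal nets, had levels of 7.12 and 7.18 after miR-125a-3p, against 7.14 and 7.34 in miR-neg. These also overlapped, with a difference of -0.09 (SE 0.10, 95% interval -0.38 to 0.19) and an adjusted p of 0.676.

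Ptprz1 is a receptor phosphatase whose extracellular part carries chondroitin sulfate and binds tenascins, pleiotrophin and contactin. The probe with the higher mean over the 4 arrays (NM_001170685), which stands for the gene, had levels of 4.44 and 4.47 after miR-125a-3p, against 4.36 and 4.39 in miR-neg, a difference of 0.08 (SE 0.07, 95% interval -0.13 to 0.28). The other probe (NM_013080) had 4.15 and 4.23 after miR-125a-3p, against 4.41 and 4.45 in miR-neg, a difference of -0.24 (SE 0.08, 95% interval -0.46 to -0.02). Each probe kept the groups apart, in opposite directions, and the adjusted p-values were 0.620 and 0.239. The first probe was the brighter one on the miR-125a-3p arrays and the dimmer one on the miR-neg arrays, so the sign given for Ptprz1 rests on which probe stands for it.

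**Figure D3:**
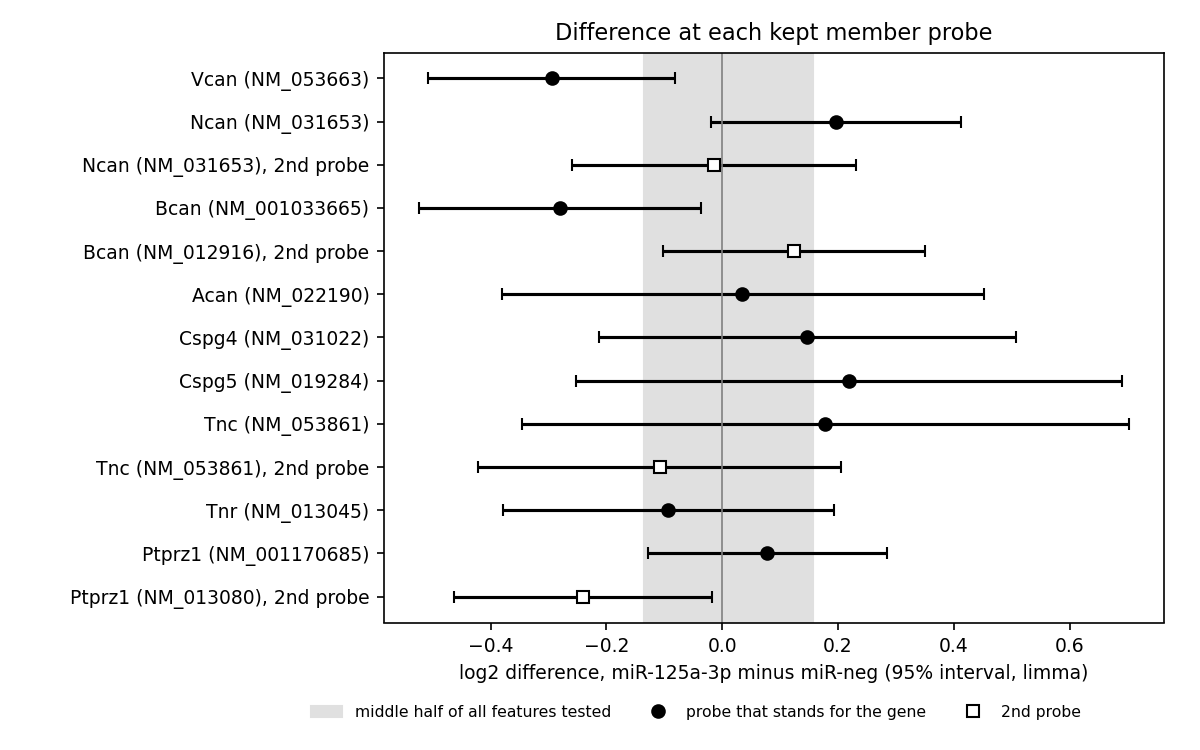
Log2 difference, miR-125a-3p minus miR-neg, at each kept probe with its 95% interval from limma, and the interquartile range of all features in grey. Only the intervals of Vcan, the brighter Bcan probe and the other Ptprz1 probe lie wholly on one side of 0.

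Bcan, Ptprz1, Ncan and Tnc each had 2 kept probes. The ratio of the probe with the higher mean over the 4 arrays to the other probe, taken within each array, does not depend on that array's scaling, and it was compared over all 2621 genes with 2 or more kept probes, a comparison chosen after the values were seen. For Bcan the log2 ratio was 7.13 and 7.07 after miR-125a-3p, against 7.47 and 7.54 in miR-neg, a difference of -0.40 (SE 0.08). For Ptprz1 it was 0.29 and 0.24 after miR-125a-3p, against -0.05 and -0.06 in miR-neg, a difference of 0.32 (SE 0.08). Ncan differed by 0.21 (SE 0.10) and Tnc by 0.29 (SE 0.16). The groups did not overlap in any of the 4 genes, against 36.1% of all 2621. None passed limma's test (0 of 4, against 0% of all pairs), where the adjusted p was 0.579 for Bcan and 0.671 for Ptprz1. At an unadjusted p under 0.05 there were 2 of the 4 and 175 of the 2621.

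Hapln1, the link protein that fastens lecticans to hyaluronan, was outside the fit. Its 2 probes were not well above background on any miR-neg array. One of them was above background on 1 of 2 miR-125a-3p arrays, with signals of 10.1 and 21.1 after miR-125a-3p, against 4.17 and 3.33 in miR-neg. With no filter on dim probes the adjusted p of its difference was 0.328. The other probe was above background on 0 of the 4 arrays. Each lectican has a link protein gene beside it on the same chromosome, with 0 protein-coding genes between in all 4 pairs (Vcan and Hapln1, Bcan and Hapln2, Acan and Hapln3, Ncan and Hapln4, GRCr8 gene table). Hapln3 differed by 0.24 (SE 0.09, adjusted p 0.253) and Hapln2 by -0.16 (SE 0.12), and Hapln4 was not well above background.

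The genes around these proteins were listed by role. Of the 12 proteases and inhibitors tested, 1 rose (against 0.38% of all features), 1 fell (against 0.307%) and the other 10 did not pass, with a median of -0.02. The list was chosen with earlier results of these data known, so these shares are no test of it. Adamts4, an aggrecanase that cuts lecticans such as brevican and versican, had signals of 1671 and 1532 after miR-125a-3p, against 4604 and 4424 in miR-neg. It fell by 1.49 on the log2 scale (SE 0.10, adjusted p 0.0374). Timp1, a metalloproteinase inhibitor, had signals of 837.1 and 854.5 after miR-125a-3p, against 465.1 and 452.4 in miR-neg. It rose by 0.89 (SE 0.08, adjusted p 0.0494). Both calls were lost whichever 1 array was left out (adjusted p 0.172 to 0.218 for Adamts4 and 0.177 to 0.276 for Timp1), with no filter on dim probes (0.230 and 0.258), and with the row of the slide as a block (0.0775 and 0.1098). The Timp1 call was also lost with quantile normalization (0.0558), median centring (0.0516), the mean of probes (0.0520) and every kept probe in the fit (0.0502). Mmp2, a gelatinase, stood at -0.65 (adjusted p 0.104).

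No gene of the other lists passed. Of 12 other matrix glycoproteins 8 lay above 0, with a median of 0.31 against 0.01 for all features, of which 47.5% lay below 0. The groups did not overlap in 7 that were higher (28.7% of all features) and 2 that were lower (24.1%). This list too was chosen with earlier results of these data known. The genes above 0 include Sparc at 0.96 (adjusted p 0.0534), Bgn, a small proteoglycan, at 0.77 (0.0535), Fn1, fibronectin, at 1.18 (0.0573) and Fbln1 at 0.53 (0.0973). Of 10 hyaluronan and link protein genes 7 lay below 0, with a median of -0.14, among them Cemip2, which takes part in hyaluronan breakdown, at -0.73 (adjusted p 0.167). Cd44, the hyaluronan receptor, stood at 0.46 (adjusted p 0.148). Of 19 genes of chondroitin sulfate synthesis 11 lay above 0, with a median of 0.02, and Dse, an epimerase that makes dermatan sulfate, stood at -0.55 (adjusted p 0.0926). Of 14 receptors and ligands 6 lay above 0, with a median of -0.03. The groups did not overlap in 5 that were lower (24.1% of all features) and 1 that was higher (28.7% of all features). Cntn1, contactin 1, a partner of Ptprz1, stood at -0.27 (adjusted p 0.209) and passed with the intensity trend alone (0.0401). Mdk, midkine, a ligand of Ptprz1, stood at 0.37 (adjusted p 0.145).

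**Figure D4:**
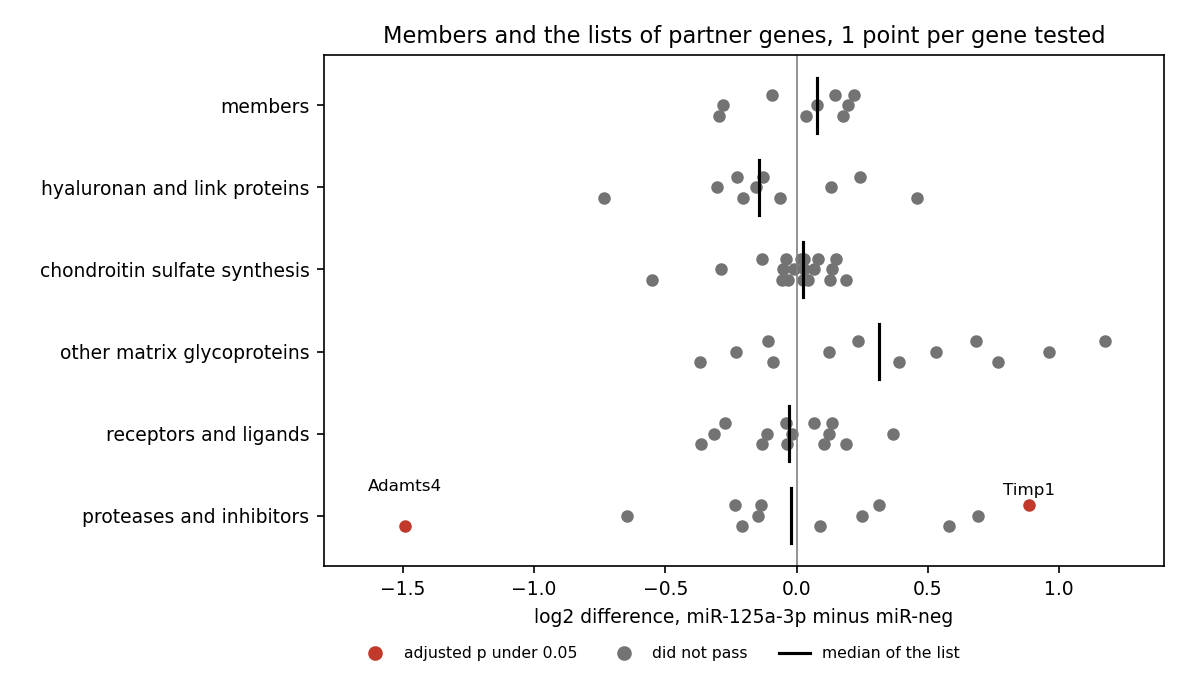
Log2 difference, miR-125a-3p minus miR-neg, of each tested gene in the family and in 5 lists of related genes, with the median of each list as a black bar. Adamts4 at -1.49 and Timp1 at 0.89 are the 2 genes past the threshold in these lists.

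The labelled cell type was checked against marker genes. The OPC transcription factors Olig1, Sox10 and Olig2 were well above background on all arrays, and the 7 tested OPC markers summed to 311.7 and 324.7 after miR-125a-3p, against 311.2 and 330.1 in miR-neg, relative to the 75th percentile signal. The sum does not stand for each gene: 4 of the 7 lay above 0 and 3 below, with a median of 0.03. Pdgfra, the PDGF receptor of OPCs, named here after its values were seen, had levels of 5.14 and 5.21 after miR-125a-3p, against 5.54 and 5.55 in miR-neg. Its groups did not overlap, and its difference of -0.37 (SE 0.08, adjusted p 0.125) was not past the threshold. It was with the intensity trend (0.00819) and with normexp (0.0213), and under none of the other 14 alternatives. Markers of mature oligodendrocytes, such as Mbp at -0.64, summed to 488.9 and 465.8 after miR-125a-3p, against 716.6 and 741.9 in miR-neg. On every array this was more than the OPC sum, though signals of different probes do not rank abundance. The cultures thus expressed both sets of markers. Mbp, the brightest, weighed most in the sum, and stood at -0.475 with the mean of its probes. The 7 tested genes ran from -1.16 to -0.08, so 0 of 7 lay above 0, and none was past the threshold. The lower values of Vcan and Bcan thus stood beside lower values of mature oligodendrocyte markers and of Pdgfra, whose direction most OPC markers did not share. The part of those cells in the Vcan and Bcan values was not tested. In bulk samples, fewer cells of a type and less RNA per cell cannot be told apart.

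Astrocyte markers summed to 28.6 and 29.1 after miR-125a-3p, against 21.9 and 23.2 in miR-neg, with 8 of 9 above 0, and Aldh1l1 rose by 1.89 (adjusted p 0.0333). Fibroblast and vascular markers summed to 0.748 and 0.905 after miR-125a-3p, against 0.4987 and 0.4998 in miR-neg, with none of the 6 tested past the threshold. Of these 6, Pdgfrb was above background on the miR-125a-3p arrays only and Col3a1 on 1 of 2 miR-neg arrays, so the filter favoured their sign. Microglial markers summed to 3.68 and 4.19 after miR-125a-3p, against 3.25 and 3.58 in miR-neg, with 5 of 7 above 0. C1qa, with dim signals of 74.2 and 82.4 after miR-125a-3p, against 31.8 and 26.1 in miR-neg, rose by 1.45 (adjusted p 0.0374). The brightest of these markers, Cx3cr1 and P2ry12, stood at -0.06 and -0.001 (adjusted p 0.779 and 0.997). The call on Aldh1l1 and on C1qa was lost whichever 1 array was left out. It was also lost with no filter on dim probes (adjusted p 0.230 for each) and with the row of the slide as a block (0.0641 and 0.0783). Neuron markers summed to 12.81 and 12.04 after miR-125a-3p, against 11.3 and 12.6 in miR-neg. Some of these marker values moved beside the values of Timp1 and the other matrix glycoproteins, and their part in them was not tested. Of the marker genes, Ermn, Gjb6, Csf1r, Slc17a7, Pecam1 and Cldn5 were above background on fewer than 2 arrays.

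**Figure D5:**
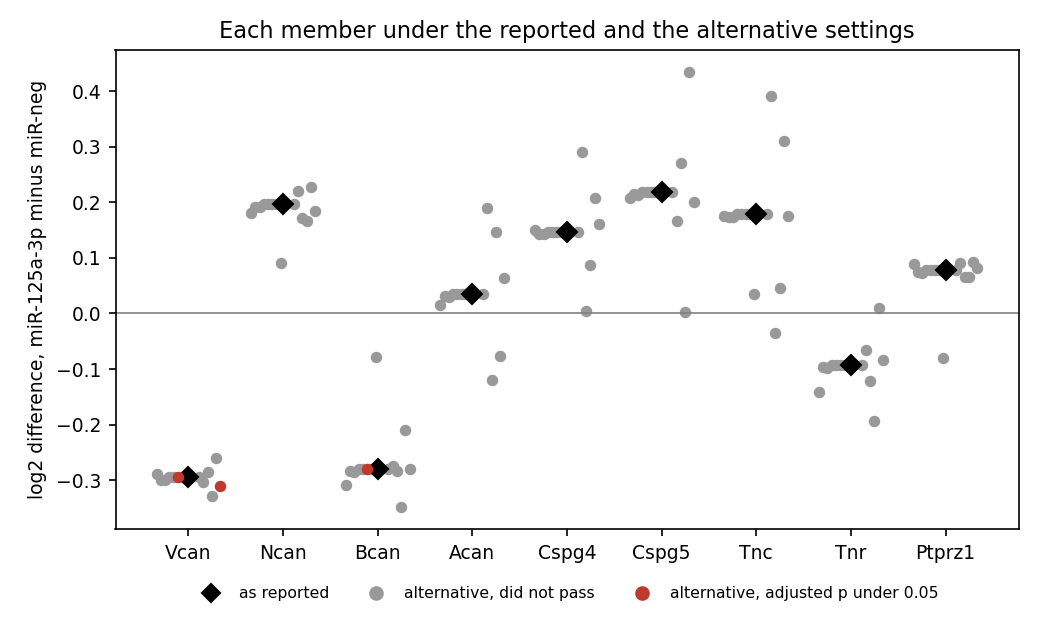
Log2 difference, miR-125a-3p minus miR-neg, of each tested gene of the family as reported and under each alternative setting. Vcan and Bcan stay below 0 throughout, while Acan, Tnc, Tnr and Ptprz1 cross 0 under at least 1 setting.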

How the data were processed

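The deposited scanner files hold processed intensities, which had background subtracted and spatial trends removed, per the file headers. The software was Agilent Feature Extraction 10.7.3.1, per the submitters' processing notes. A deposited table holds log2 values, which matched log2 of the processed intensity within 0.01, after taking 1 constant off each array, for nearly all probes, which settled how it was scaled, centred and directed. The median of its columns was -4.08 and -4.14 (miR-125a-3p) or -4.07 and -4.15 (miR-neg).

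After control and flagged spots were dropped, each probe's spots were averaged as log2 values and the array's own 75th percentile was taken off. Probes had to be well above background on 2 or more arrays, which kept 27250 of 45598. The brightest kept probe stood for its gene. The GRCr8 gene table turned RefSeq accessions into symbols for 21109 probes (46.3%), and the rest stayed in the fit unnamed. Testing used limma 3.58.1 under R 4.3.3, by lmFit followed by a two-sided eBayes test whose p-values were adjusted by Benjamini-Hochberg. An exact permutation test of 2 against 2 arrays cannot give a p below 0.333. The fit was tested on simulated data.

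Replicate numbers coincide with rows of the slide, and same-numbered arrays deviated together with a correlation of 0.0505, so numbers were not treated as pairs. Every gene of the family is named. From each related list every gene past the threshold is named, or otherwise up to 4 with the smallest p, and from each marker list otherwise the 3 with the highest signal. Hapln2 and Hapln4 are named for their position. One marker gene that this rule names is not reported here. The members and lists were chosen with earlier results of these data known. Normexp on the mean spot signal could not be run, since the files hold no mean signal. The median spot signal was used, a choice made after the data were seen. Scaling, filters, probe choice, the variance model, a replicate block and leaving out each array were the alternatives.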

Additional observations from a re-analysis of the deposited data

Results flagged for a closer look

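Hapln1 gave a signal outside the fit: the highest value of its brighter probe was 21.1, on 1 miR-125a-3p array, where it was well above background, while the highest miR-neg value was 4.17 and was not.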

How the results depend on the processing

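The count of all features past the threshold depended on the settings: 159 as reported, 83 with quantile normalization, 613 with probes above background on all 4 arrays, 0 with no filter on dim probes (3956 at an unadjusted p under 0.05), 2048 with an intensity trend in limma, 984 at a threshold of 0.1 and 1601 with normexp on the median spot signal, chosen after seeing the data. With the replicate block it was 0 (3968 unadjusted, smallest adjusted p 0.0641), and with each array left out in turn 0 to 0 (2748 to 4116 unadjusted). Of the family, 0 passed as reported, 2 with the intensity trend (Vcan, adjusted p 0.0245, and Bcan, 0.0468), 1 with normexp (Vcan, 0.0479), and 0 under every other setting run, the replicate block included. Adjusted p ranged from 0.0245 to 0.488 for Vcan and from 0.0468 to 0.660 for Bcan. Bcan moved to -0.08 with the mean of its probes, Ncan to 0.09 and Tnc to 0.035, and Ptprz1 turned to -0.081. Without 1 array, Acan ran from -0.12 to 0.19, Tnc from -0.036 to 0.39 and Tnr from -0.19 to 0.009, and Cspg4 from 0.005 to 0.29 and Cspg5 from 0.003 to 0.43. Without miR-125a-3p replicate 2 Acan was at -0.12, Cspg4 at 0.005 and Tnc at -0.036, and without miR-neg replicate 2 Acan was at -0.076 and Tnr at 0.009. The call on Adamts4 was lost under 6 of 16 alternatives and that on Timp1 under 10. Without miR-neg replicate 1 Cspg5 was at 0.003. The cause was not tested. Hapln1 was limited by its dim signal.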
